A study of Mus musculus with 8 samples.

Results

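The genes described here encode the proteins of the cytosolic ribosome. They were taken by symbol from the array's annotation (Rpl or Rps followed by a number, with Rplp0, Rplp2 and Rpsa), without the Rps6k kinases, Rps19bp1 and symbols marked as pseudogenes. The rule gave 49 of 18193 genes, 23 of the small subunit and 26 of the large one, each read from the probe set whose mean over the 8 arrays was highest. Of these, 47 were among the 11178 genes tested. The other 2, Rpl3l and the probe set paired with Rps16 alone, did not exceed 2.70 on any array and were left out by the filter on low values. A further 31 symbols of the same form had only probe sets shared with other symbols, and these are described separately below.

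Transcript levels were measured on 8 Affymetrix mouse arrays, 2 for each of 4 types of helper T cell. Tfh cells, which help B cells in follicles, were CD4+ CXCR5+ T cells that a flow cytometer sorted out of spleen cells of C57BL/6 mice immunized 7 days earlier with KLH (keyhole limpet haemocyanin), and restimulated for 4 h with anti-CD3. The Th1, Th2 and Th17 cells came from naive CD4 T cells of spleen and lymph node of OT-II mice, which carry a T cell receptor transgene on the C57BL/6 background and were 6 to 8 weeks old. These cells were cultured for 5 days with OT-II peptide and antigen-presenting cells, with IL-12 and anti-IL-4 for Th1, IL-4 and anti-IFNg for Th2, and IL-6, TGFb, anti-IL-4 and anti-IFNg for Th17. Tfh cells therefore differed from the others in source, receptor, culture and last stimulus as well as in type, and these cannot be told apart. Their arrays also had a shifted distribution of values, described below. Any part of array processing in that shift cannot be told apart from these factors either. Whether the replicates of a type were separate animals or cultures is not in the labels, and a p here speaks only of the spread between arrays, which may be technical.

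The ribosome translates mRNA into protein, and each of its subunits joins ribosomal RNA to many small, mostly basic proteins that are needed in equal numbers. T cells that enter growth make more ribosomes under the control of the mTORC1 kinase complex and of Myc. Most mRNAs of ribosomal proteins begin with a C followed by a run of pyrimidines, the 5′ terminal oligopyrimidine (TOP) tract, through which mTORC1 and the RNA-binding protein Larp1 set their translation and stability.

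The starts of 8 members are shown, 6 with such a tract and 2 without one, because they include both genes whose difference passed the full test. Each window runs 5′ to 3′ from 40 bases before to 20 bases from the annotated start, from the RefSeq promoters of GRCm38.p6, with the pyrimidine run that starts at a C on the start base in capitals. Rpl35 lies at chr2:39005112-39005171 (minus strand), Rps10 at chr17:27635225-27635284 (minus), Rplp2 at chr7:141447611-141447670 (plus) and Rps6 at chr4:86857348-86857407 (minus). Rpl14 lies at chr9:120571477-120571536 (plus), Rps27 at chr3:90213629-90213688 (minus), Rps28 at chr17:33824543-33824602 (minus) and Rpl39 at chrX:37085203-37085262 (minus). The windows of Rps28 and Rpl39 have no such run at the annotated start base and stand for the members without one.
Rpl35: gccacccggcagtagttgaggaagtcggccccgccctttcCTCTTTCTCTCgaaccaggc
Rps10: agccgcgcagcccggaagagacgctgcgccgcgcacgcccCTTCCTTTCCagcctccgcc
Rplp2: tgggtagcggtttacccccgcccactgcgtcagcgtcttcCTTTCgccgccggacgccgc
Rps6: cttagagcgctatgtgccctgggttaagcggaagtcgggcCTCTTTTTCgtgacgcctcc
Rpl14: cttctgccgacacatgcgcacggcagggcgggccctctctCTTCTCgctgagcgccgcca
Rps27: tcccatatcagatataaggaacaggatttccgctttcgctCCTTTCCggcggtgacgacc
Rps28: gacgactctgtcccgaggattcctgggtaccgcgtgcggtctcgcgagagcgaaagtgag
Rpl39: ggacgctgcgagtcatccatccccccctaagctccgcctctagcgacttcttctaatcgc

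RefSeq promoters were at hand for 43 of the 49 members. A C on the start base followed by at least 4 further C or T was found in 8 of these 43 (18.6%), against 813 of 27025 genes (3.01%). The letters CCGGAAG, a form of the site bound by ETS-family factors such as GABP, stood on either strand between 250 bases before and 50 bases after the start in 21 of the 43 (48.8%) and in 2683 of 27025 genes (9.93%). Such matches describe the annotated windows and do not locate the start used in these cells. The 8 members with the tract differed between Tfh and the mean of the cultured types by -1.03 to 0.33 log2 units, 4 above 0 and 4 below. Among the 33 tested members with a promoter and without the tract the differences ran from -0.43 to 1.88, 19 above 0 and 14 below. The ranges overlapped, and both directions occurred with and without the tract. Whether the direction goes with the tract was not tested.

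Before the members are compared, the arrays themselves differed. As deposited, the median of the tested genes was 8.84 and 8.83 in the Tfh arrays, against 7.59 to 7.69 in the 6 cultured arrays. Control probe sets read the 3′ and the 5′ end of a transcript. For Gapdh the 3′ value minus the 5′ value was 0.24 and 0.15 in Tfh and -0.23 to -0.13 in the cultured arrays. For beta-actin it was 0.49 and 0.45 in Tfh, within the 0.42 to 0.61 of the cultured arrays. The part of RNA quality was not tested. T cell genes Cd3e, Cd3g, Cd4, Cd28 and Cd2 were at 8.61 or more on all 8 arrays. All 8 neutrophil markers tested were called higher in Tfh, with list medians of 11.87 and 11.80 in Tfh, 2.31 and 2.41 in Th1, 4.31 and 2.30 in Th2, and 2.31 and 2.30 in Th17. The medians of 6 myeloid markers were 6.14 and 6.23 in Tfh, 2.50 and 3.08 in Th1, 6.92 and 4.05 in Th2, and 5.88 and 3.63 in Th17. Those of 5 B cell markers were 7.90 and 7.93 in Tfh, 3.42 and 4.61 in Th1, 4.49 and 7.59 in Th2, and 7.18 and 5.40 in Th17, and 4 erythroid markers did not exceed 3.09 on any array. The medians of 4 CD8 and NK cell markers were 5.76 and 5.84 in Tfh and 5.72 and 5.48 in Th1. In Th2 they were 5.33 and 3.60, and in Th17 4.21 and 4.65. The part of other cells in the results below was not tested, and in bulk samples fewer cells of a type and less RNA per cell cannot be told apart.

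The deposited signal of the ribosomal protein genes was nearly level across the 4 types. The median over the 47 tested members was 15.06 and 15.00 in Tfh, 15.04 and 14.94 in Th1, 14.96 and 14.95 in Th2, and 15.04 and 15.09 in Th17, on the log2 scale. The 8 medians spanned less than 0.2 log2 units, and the Tfh arrays lay within the range of the cultured ones. The median difference of the 47 tested members between Tfh and the mean of the cultured types was 0.02 log2 units, whereas over all tested genes it was 0.84. It was 0.03 against Th1, 0.06 against Th2 and -0.01 against Th17, where all genes gave 0.85, 0.84 and 0.83. Those comparisons share the Tfh arrays. Both Tfh arrays lay above all 6 cultured ones for 14 members (60.5% of all genes) and below them for 10 (13.8%). Of the 47 members 42 differed by less than 0.5 log2 units from the cultured mean, as did 25.8% of all tested genes, and the values of every member by array are plotted below.

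**Figure D1:**
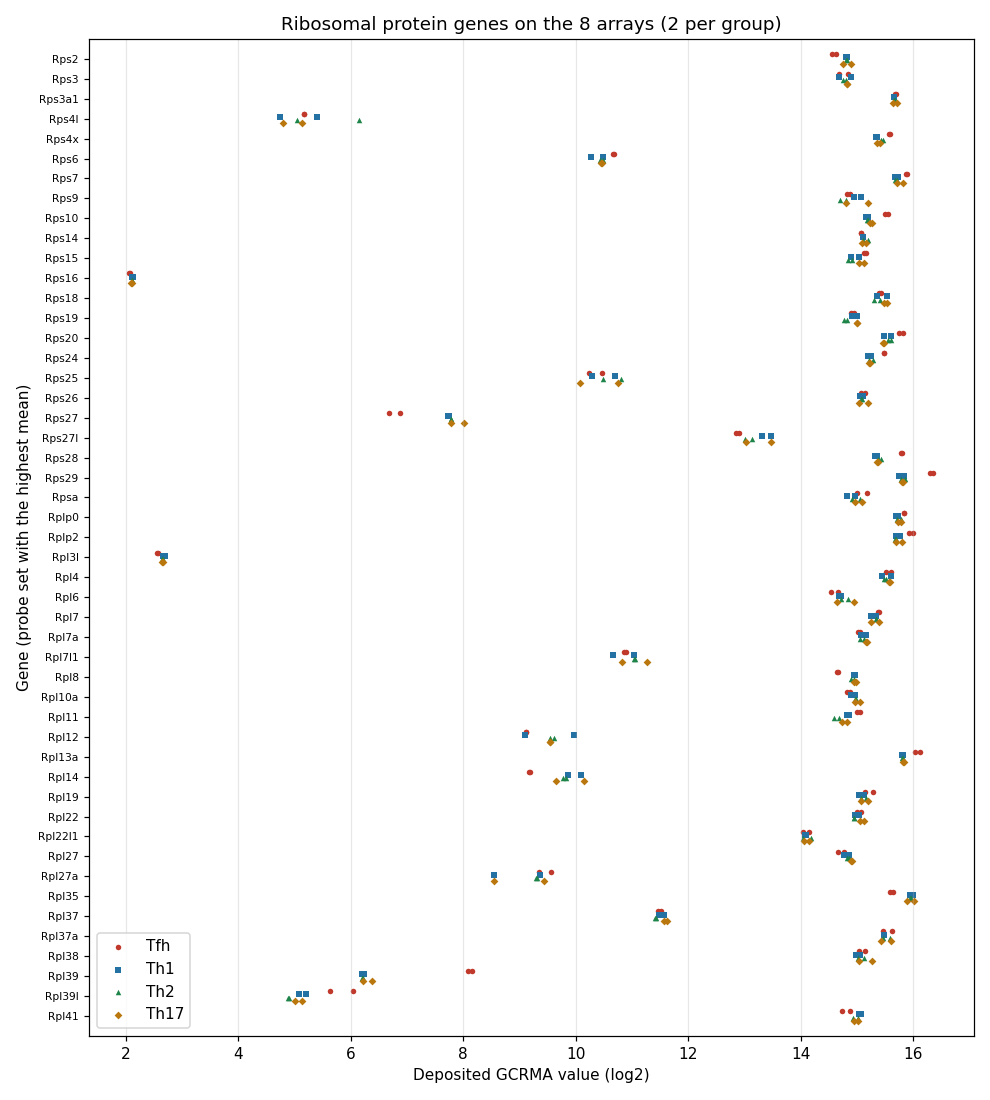
Deposited values (log2, horizontal axis) of the 49 ribosomal protein genes, small subunit above and large subunit below, with 2 points per group. For 35 genes all points lie between 14.04 and 16.36, with Tfh points on either side of the others; Rpl39 and Rps27 are the genes called different between Tfh and the cultured types.

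Most members were read near the top of the arrays' scale. The mean of 35 of them was at least 14, a level reached by 99 tested genes in all, and the highest value over all probe sets was 16.27 to 16.37 on each array. These 35 members differed between Tfh and the cultured mean by -0.33 to 0.52 log2 units, with a median of 0.02. The other 64 genes at that level had a median difference of 0.07, and 9.38% of them were called in either direction. Other genes with means from 6 to 8 had a median difference of 1.30, those from 8 to 10 had 1.03 and those from 12 to 14 had 0.28. The quartiles of those 64 genes were -0.34 and 0.34, so their median near 0 covered differences in both directions. Whether the scale is compressed at that level was not tested.

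**Figure D2:**
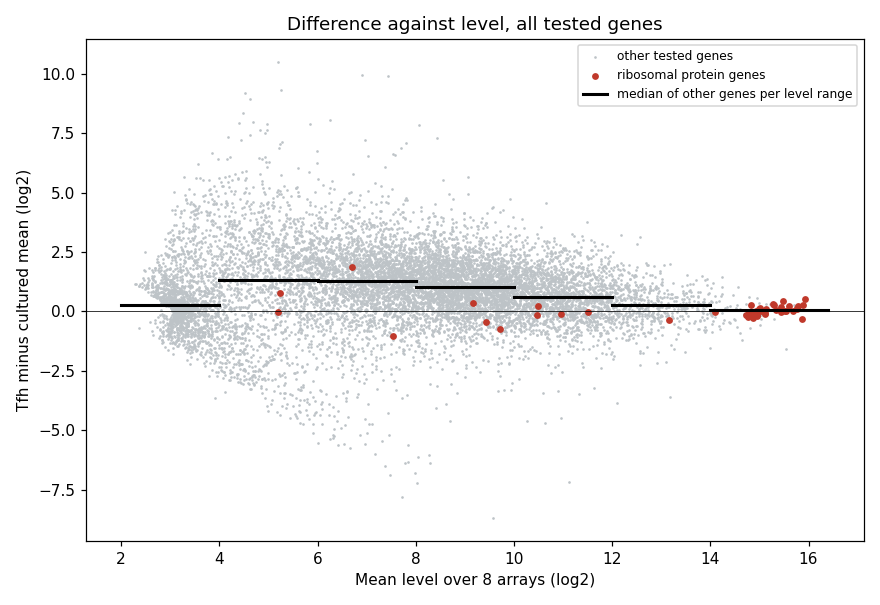
Difference between Tfh and the mean of Th1, Th2 and Th17 (log2, vertical axis) against mean level over the 8 arrays (log2, horizontal axis), 1 point per tested gene; black bars are medians of the other genes within a range of levels. The bars fall from 1.30 at levels of 6 to 8 to 0.07 at 14 and above, where 35 of the ribosomal protein genes (red) lie.

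Replicate arrays gave close values for the members. The median absolute difference between the replicates was 0.06 log2 units between the Tfh arrays, 0.08 for Th1, 0.06 for Th2 and 0.08 for Th17, where all tested genes gave 0.08, 0.30, 0.19 and 0.31. The widest gaps were those of Rpl39l in Tfh (0.40), Rpl12 in Th1 (0.87), Rps4l in Th2 (1.10) and Rpl27a in Th17 (0.89), all with mean values under 10. Rpl27a stood at 9.55 and 9.35 in Tfh, 8.54 and 9.37 in Th1, 9.32 and 9.29 in Th2, and 8.54 and 9.43 in Th17. Its low values were thus on the first replicate of both Th1 and Th17. The standard error of a difference in the limma fit had a median of 0.07 over the members and 0.19 over all tested genes, for Tfh against the cultured mean.

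A gene was called when limma's Benjamini-Hochberg adjusted p over all tested genes was under 0.05 and the difference was at least 1 log2 unit. Between Tfh and the cultured mean, 1 of the 47 members was called higher, where 43.7% of all genes were, and 1 was called lower, where 6.66% were. Against Th1 the counts were 1 higher (42.8% of all genes) and 0 lower (6.16%). Against Th2 they were 1 (42.8%) and 1 (6.89%), and against Th17 1 (41.8%) and 1 (6.17%). At an unadjusted limma p under 0.05, 11 members were higher and 7 lower against Th1. The shares of all genes at that limit were not computed. By adjusted p alone, 11 members were higher (59.1% of all genes) and 6 lower (12.5%) in Tfh than in the cultured mean. The share called higher was thus below that of all genes, while the 6 lower were near it. The 95% interval of the difference lay within 0.5 log2 units of 0 for 35 of the 47 members and within 1 unit for 42.

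The sign of the members' differences and the counts of calls depended on the scaling. Of the 4 alternatives, 3 subtract a single amount per array from every gene, which moves all differences by the same step. These cannot change the gap between the members' median and that of all genes. Only quantile normalization could change that gap, and under it the gap narrowed, with the medians given below. When arrays were shifted to the same median gene, the members' median difference was -1.18, that of all genes was -0.35, and 0 members were called higher (14.8% of all genes) and 35 lower (28.9%). By adjusted p alone these were 1 higher (22.9%) and 44 lower (42.9%). With the 90th percentile of the tested genes as the common point, the members' median was -0.65 and that of all genes 0.17, with 1 member called higher (25.3% of all genes) and 4 lower (15.1%). After quantile normalization the medians were -0.08 for the members and -0.03 for all genes, with 0 members called higher (18.3% of all genes) and 5 lower (18.6%). By adjusted p alone they were 4 higher (30.3%) and 15 lower (31.2%), and the lower share was near that of all genes. With the members' own median as the common point, 1 was called higher and 1 lower, as with the deposited values. Total RNA per cell was not measured, so a common change of all ribosomal protein mRNAs per cell was not tested.

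**Figure D3:**
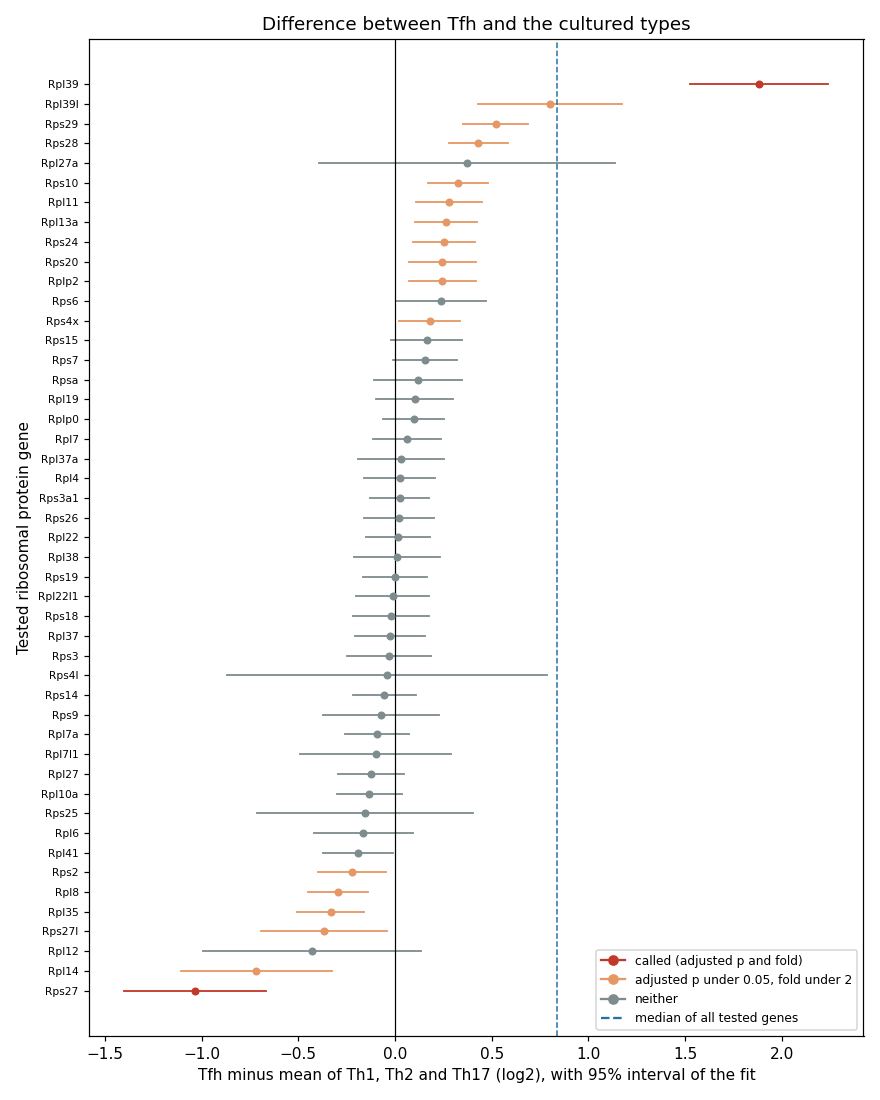
Difference between Tfh and the mean of Th1, Th2 and Th17 (log2, horizontal axis) for the 47 tested members, with the 95% interval of the limma fit; the dashed line is the median of all tested genes, 0.84. Only Rpl39 and Rps27 pass the adjusted p and the fold; 15 further members pass the adjusted p alone.

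Rpl39, a very small protein of the wall of the large subunit's exit tunnel, was the member called higher. The probe set paired with Rpl39 alone stood at 8.16 and 8.08 in Tfh, 6.20 and 6.23 in Th1, 6.19 and 6.21 in Th2, and 6.22 and 6.37 in Th17. Both Tfh values exceeded the 6 others. The difference from the cultured mean was 1.88 (SE 0.14, limma adjusted p = 0.000122), which is 1.04 above the median gene, and it was 1.90, 1.92 and 1.82 against Th1, Th2 and Th17. The median shift left 0.69 and quantile normalization 0.62, under the fold required for a call. Another probe set, which the annotation pairs with Rpl39 and the predicted gene Gm32211, read 15.72 and 15.75 in Tfh, 15.58 and 15.60 in Th1, 15.59 and 15.54 in Th2, and 15.60 and 15.56 in Th17. That probe set differed by 0.16, so the fold of Rpl39 was not the same in the readings of its probe sets.

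Rps27, a zinc-finger protein of the small subunit also called metallopanstimulin-1, was the member called lower. Its own probe set stood at 6.87 and 6.67 in Tfh, 7.73 and 7.74 in Th1, 7.77 and 7.78 in Th2, and 7.79 and 8.01 in Th17, with both Tfh arrays below all others. The difference from the cultured mean was -1.03 (SE 0.15, limma adjusted p = 0.00134), with -0.97, -1.0 and -1.13 against Th1, Th2 and Th17. Without Tfh replicate 2 it was -0.94 (adjusted p = 0.0231), and without Th17 replicate 2 it was -0.996 (adjusted p = 0.00234), so neither was called. The probe set that the annotation pairs with Rps27 and its retrogene Rps27rt went the other way. It read 15.96 and 15.90 in Tfh, 15.26 and 15.36 in Th1, 15.43 and 15.44 in Th2, and 15.39 and 15.57 in Th17, a difference of 0.52. Transcripts of Rps27 and Rps27rt could not be told apart on that probe set, and the direction for Rps27 is uncertain.

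Rpl14, a large-subunit protein, was lower in Tfh on nearly all of its probe sets. The probe set of Rpl14 alone stood at 9.17 and 9.18 in Tfh, 10.09 and 9.86 in Th1, 9.82 and 9.77 in Th2, and 10.15 and 9.65 in Th17. Both Tfh arrays were lowest, and the difference of -0.72 (SE 0.16, adjusted p = 0.00776) passed the adjusted p but not the fold. The median and 90th percentile shifts, which subtract 1 amount per array from every gene, took that difference past the fold. Of the 5 probe sets shared with the pseudogene Rpl14-ps1, 4 differed by -0.68 to -0.53 and the other by -0.03. The brightest of them read 14.56 and 14.43 in Tfh, 14.97 and 15.05 in Th1, 15.00 and 15.03 in Th2, and 15.05 and 15.05 in Th17.

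**Figure D4:**
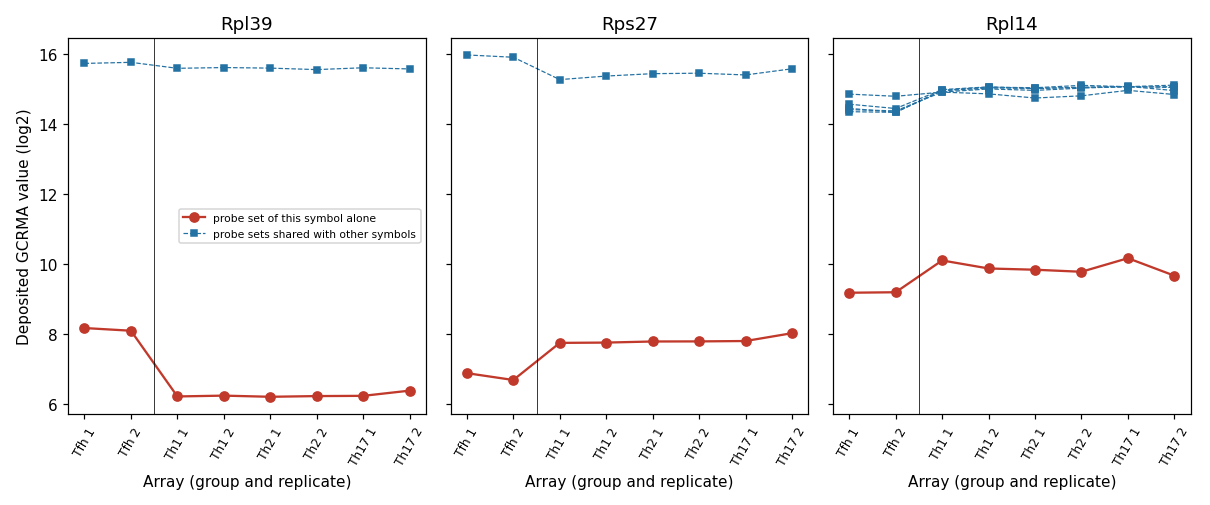
Deposited values (log2, vertical axis) on the 8 arrays for the probe set of each gene alone (red) and for probe sets shared with other symbols (blue); the vertical line separates Tfh from the cultured types. Rpl39 is higher in Tfh by 1.88 on its own probe set and by 0.16 on the shared one, Rps27 is lower by 1.03 on its own and higher by 0.52 on the shared one, and Rpl14 is lower on its own and on 4 of 5 shared ones by 0.53 to 0.72.

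Among the small-subunit proteins with bright probe sets, the widest differences were those of Rps29 and Rps28, both small proteins of the subunit's head region. Rps29 stood at 16.36 and 16.30 in Tfh, 15.74 and 15.84 in Th1, 15.86 and 15.79 in Th2, and 15.81 and 15.81 in Th17, a difference of 0.52 (SE 0.07, adjusted p = 0.000904). The Tfh arrays lay above all others, and its 2 other bright probe sets gave 0.20 and 0.25. The difference kept its sign after quantile normalization (0.25, adjusted p = 0.037) and with the members' median as common point (0.49, adjusted p = 0.00198). It turned to -0.67 under the median shift and to -0.14 under the remaining shift that subtracts a single amount per array from every gene. The sign of the Rps29 difference thus depended on the scaling. Rps28 stood at 15.81 and 15.79 in Tfh, 15.35 and 15.33 in Th1, 15.42 and 15.38 in Th2, and 15.37 and 15.36 in Th17. Its difference of 0.43 (SE 0.06, adjusted p = 0.00132) was 0.33 after quantile normalization (adjusted p = 0.00732) and 0.40 with the members' median (adjusted p = 0.00277). Like that of Rps29, it turned negative under the median shift and the remaining shift. Its 2 other bright probe sets gave -0.06 and 0.04, close to 0. Rps10, of the small subunit's head, was at 15.56 and 15.50 in Tfh and at 15.16 to 15.27 in the cultured arrays, and its 4 other bright probe sets differed by 0.04 to 0.34.

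The large-subunit proteins Rpl35 and Rpl8 were lower in Tfh by less than the fold required. Rpl35, which lies at the exit of the nascent chain, stood at 15.65 and 15.60 in Tfh, 15.95 and 16.00 in Th1, 15.95 and 15.96 in Th2, and 16.01 and 15.88 in Th17. The Tfh arrays lay below all others, with a difference of -0.33 (SE 0.07, adjusted p = 0.00631), and its 4 other bright probe sets gave -0.35 to -0.07. Rpl8, a protein near the peptidyl transferase centre, stood at 14.67 and 14.64 in Tfh and at 14.90 to 14.99 in the cultured arrays (-0.29, SE 0.06, adjusted p = 0.00668). Small differences of this kind went both ways within each subunit. By adjusted p alone, 6 of 22 tested small-subunit members were higher and 3 lower, and 5 of 25 large-subunit members were higher and 3 lower, with medians of 0.02 and 0.01. With the members' median as the common point, 9 of the 47 were higher (57.6% of all genes) and 6 lower (12.6%) by adjusted p alone.

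Of the 17 members that passed the adjusted p alone, 7 had another bright probe set, and for 5 of those every other bright probe set had the same sign. These were Rpl35, Rps10, Rps20, Rps24 and Rps29. Rpl13a, higher by 0.26, had another bright probe set at -0.15. By adjusted p alone, 8 members were higher (54.6% of all genes) and 5 lower (10.7%) in Tfh than in Th1, 10 higher (54.2%) and 4 lower (11.1%) than in Th2, and 9 higher (54.1%) and 4 lower (10.4%) than in Th17. Of these, 7 were higher and 4 lower against every one of the 3 types, comparisons that share the Tfh arrays. The share of all genes that passed against all 3 types was not computed, so these counts cannot be set against it.

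The stalk of the large subunit, which recruits translation factors, was represented by Rplp0, Rplp2 and Rpl12. Their differences between Tfh and the cultured mean were 0.10, 0.24 and -0.43, and Rplp2 passed the adjusted p alone. Rpl12 stood at 9.12 and 9.11 in Tfh, 9.09 and 9.96 in Th1, 9.61 and 9.54 in Th2, and 9.54 and 9.53 in Th17, and the groups overlapped (adjusted p = 0.138). A brighter probe set shared between Rpl12 and other symbols differed by 0.15. Rpl11, which carries the 5S ribosomal RNA into the large subunit together with Rpl5 and binds the p53 regulator Mdm2, stood at 15.06 and 15.00 in Tfh, 14.82 and 14.85 in Th1, 14.59 and 14.69 in Th2, and 14.73 and 14.82 in Th17. Both Tfh values of Rpl11 were the highest, by 0.28 on average (SE 0.07, adjusted p = 0.0126).

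Around the exit tunnel, Rpl4 and Rpl19 differed by 0.02 and 0.10, beside Rpl35 and Rpl39 above. A list of 9 genes whose human counterparts are mutated in Diamond-Blackfan anaemia, a failure of red cell production, held 6 members. These were Rps7, Rps10, Rps19, Rps24, Rps26 and Rpl11, and they differed by 0.00 to 0.33 with a median of 0.20. Of these 6, 0 were called by limma, and Rps10, Rps24 and Rpl11 passed the adjusted p alone. That list is not complete: Rps27, Rps28, Rps29, Rpl27 and Rpl35, also linked to the disease in humans, differed by -1.03, 0.43, 0.52, -0.13 and -0.33, and Rps27 was called lower. Rps6, the substrate of the S6 kinases downstream of mTORC1, stood at 10.67 and 10.68 in Tfh and at 10.27 to 10.49 in the cultured arrays. Its difference was 0.24 (95% interval 0.01 to 0.47, adjusted p = 0.0603), and the brightest probe set it shares with other symbols differed by -0.09.

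Paralogs of ribosomal proteins, which can replace their parent in some tissues, were not called in any comparison. Rpl22, which in mice is needed for the development of alpha-beta T cells, stood at 15.07 and 15.00 in Tfh and at 14.95 to 15.13 in the cultured arrays, and its paralog Rpl22l1 at 14.04 and 14.14 in Tfh and 14.05 to 14.18 in the cultured arrays. Neither gene separated the groups on these probe sets, with differences of 0.02 (95% interval -0.15 to 0.18) and -0.01 (-0.20 to 0.18). Another bright probe set of Rpl22 gave -0.08, but a dim one read 8.99 and 9.17 in Tfh and 6.36 to 7.64 in the cultured arrays, a difference of 1.96. Rpl39l, the paralog of Rpl39 known from male germ cells, stood at 6.03 and 5.63 in Tfh, 5.19 and 5.08 in Th1, 4.88 and 4.90 in Th2, and 5.01 and 5.13 in Th17. Its difference of 0.80 (SE 0.15, adjusted p = 0.00418) lay 0.04 below that of the median gene and became -0.39 under the median shift and -0.40 under quantile normalization. Rps27l, a p53-induced paralog of Rps27, stood at 12.90 and 12.85 in Tfh, 13.32 and 13.47 in Th1, 13.14 and 13.02 in Th2, and 13.47 and 13.03 in Th17. Its difference was -0.37 (SE 0.13, adjusted p = 0.0466), and by adjusted p it passed against Th1 (-0.52) but not against Th2 (-0.20) or Th17 (-0.37). Its 2 other probe sets gave -0.13 and -0.14. The pass was lost with the mean of its probe sets (-0.21, adjusted p = 0.166), without probe sets ending in _x_at (-0.13, adjusted p = 0.407), with the replicate block (adjusted p = 0.0525), with the members' median as common point (adjusted p = 0.0527) and without a variance trend (adjusted p = 0.0604). Rps4l and Rpl7l1 differed by -0.04 and -0.10, with 95% intervals of -0.87 to 0.78 and -0.49 to 0.29. Another probe set of Rpl7l1 read 10.17 and 10.00 in Tfh and 10.54 to 10.94 in the cultured arrays, a difference of -0.64. The dimmest probe set of Rpl7l1 gave 0.16.

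Ribosomal protein mRNAs are short and have many processed pseudogenes, so many probe sets match several symbols. There were 110 probe sets paired with a ribosomal protein symbol and at least 1 other symbol, and in 98 of them the others were only pseudogenes or predicted genes. Of the 110, 77 had a mean of at least 14, and 72 of these 77 differed between Tfh and the cultured mean by less than 0.5 log2 units (median 0.06). The bright shared probe sets ran from -0.68 to 0.52, a wider range than the -0.33 to 0.52 of the 35 bright members. Of the 31 symbols with no probe set of their own, 24 had probe sets shared only with pseudogenes or predicted genes, and the brightest of each differed by -0.29 (Rpl29) to 0.47 (Rps15a) with a median of 0.10. The other 7 shared theirs with another named gene. Among these, the probe set of Rpl32 and Rpl32l read 14.79 and 14.72 in Tfh, below the 15.02 to 15.23 of the cultured arrays, a difference of -0.38. Those of Rpl35a, of Rpl36a with Rpl36al, and of Rpl37rt differed by -0.06, 0.01 and 0.13, and Rps27rt is given above with Rps27. Transcripts of the genes and of their copies were not told apart on shared probe sets.

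Th1, Th2 and Th17 cells were compared in pairs. They came from the same tissues and mouse line and from cultures of the same length, with different cytokines and antibodies. No member was called by limma in any of the 3 pairs, in either direction, and none had an unadjusted p under 0.05. Of all genes, 0.349% were called higher and 0.895% lower in Th1 than in Th2, 0.0626% and 0.0805% in Th1 than in Th17, and 0.483% and 0.188% in Th2 than in Th17. The median difference of the members was -0.02 for Th1 minus Th2 and -0.03 for each of the other pairs. The 95% interval lay within 1 log2 unit of 0 for 45, 46 and 45 of the 47 members and within 0.5 units for 38, 37 and 37, so larger differences remain possible for the rest.

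The widest difference among the cultured types was that of Rps4l, whose replicates also lay far apart. This mouse paralog of Rps4x stood at 4.74 and 5.40 in Th1, 6.14 and 5.05 in Th2, and 5.13 and 4.80 in Th17, and 1 of the Th2 arrays was above the rest. Its differences were -0.53 for Th1 minus Th2 (95% interval -1.54 to 0.48) and 0.63 for Th2 minus Th17 (-0.38 to 1.64). Rps19, in humans the gene most often mutated in Diamond-Blackfan anaemia, had its 2 lowest values in Th2, with 14.78 and 14.83 in Th2 and 15.01 and 15.00 in Th17. That difference was -0.20 (adjusted p = 0.371).

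Other genes of the translation machinery were read from lists of known members, between Tfh and the cultured mean. Of 35 initiation factor genes and their regulators, 4 were called higher (43.7% of all genes) and 3 lower (6.66%), with a median of 0.18, where all genes had 0.84. The counts were 1 and 18 under the median shift (14.8% and 28.9% of all genes). Under quantile normalization they were 1 and 7 (18.3% and 18.6%), and the lower share was near that of all genes. Eif2b3 and Eif2b1, subunits of the exchange factor that recharges eIF2, fell by 2.18 (SE 0.10) and 1.08 (SE 0.16). Eif4ebp1, an mTORC1 target that blocks the cap-binding factor eIF4E, stood at 7.95 and 7.99 in Tfh, 11.76 and 9.11 in Th1, 12.07 and 10.91 in Th2, and 11.49 and 9.55 in Th17, and fell by 2.84 (SE 0.84, adjusted p = 0.0239). Its relative Eif4ebp2 rose by 2.35 (SE 0.25, adjusted p = 0.000432). These 4 calls held under the median shift and under quantile normalization too, whereas the higher calls of Eif5b (1.57) and Eif4g3 (1.5) did not. Both scalings move Tfh values down, which makes a lower call hard to lose and a higher one easy to lose.

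Of 12 elongation and termination genes 0 were called higher by limma (43.7% of all genes) and 1 lower (6.66%), with a median of -0.10. Under the median shift 10 of the 12 were called lower (28.9% of all genes), and under quantile normalization 3 (18.6%). The gene called lower was Eef2k, the kinase that inhibits elongation factor eEF2, at 4.93 and 4.74 in Tfh and 7.01 to 7.93 in the cultured arrays (-2.60, SE 0.27, adjusted p = 0.00038). Eef1a1, whose mRNA also has a TOP tract, differed by 0.08 (95% interval -0.12 to 0.28), and Eef2, another TOP mRNA, by 0.51 (0.07 to 0.95). Neither was called. Fau, which encodes a ubiquitin-like protein fused to the small-subunit protein eS30, stood at 14.80 and 14.70 in Tfh and at 14.21 to 14.74 in the cultured arrays, and was not called (0.27, adjusted p = 0.127).

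Of 83 genes of ribosome assembly and ribosomal RNA synthesis 3 were called higher (43.7% of all genes) and 5 lower (6.66%), with a median of -0.22. The share called lower was near that of all genes. Under the median shift, however, 60 were called lower (28.9% of all genes), and under quantile normalization 46 (18.6%). In both, 0 were called higher by limma (14.8% and 18.3% of all genes). The 5 lower calls held in 3 scalings (deposited values, median shift, quantile normalization), and the 3 higher ones did not. The other 2 scalings move Tfh values down, which makes a lower call hard to lose. Ebna1bp2, an assembly factor of the large subunit, fell by 1.23 (SE 0.10), the small-subunit factor Pno1 by 1.08 (SE 0.18) and Polr1a, the catalytic subunit of RNA polymerase I, by 1.09 (SE 0.20). Higher were Nol6 by 1.75, the atypical kinase gene Riok1 by 1.63 and Taf1c, of the polymerase I selectivity factor, by 1.57. The 76 mitochondrial ribosomal protein genes had a median of -0.06. In limma, 2 of them were called higher (43.7% of all genes), Mrpl24 (1.11) and Mrpl58 (1.10), and 0 lower (6.66%). Of these 76, 52 were called lower under the median shift (28.9% of all genes) and 36 under quantile normalization (18.6%). In both, 0 of the 76 were called higher by limma (14.8% and 18.3% of all genes).

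Of 18 tested genes of the mTORC1 and Myc network 10 were called higher (43.7% of all genes) and 1 lower (6.66%), with a median of 1.62. The counts were 3 and 4 under the median shift (14.8% and 28.9% of all genes). Under quantile normalization they were 3 each way (18.3% and 18.6%). Of the calls on deposited values, 3 higher ones and the lower one held in the 3 scalings, where a lower call is hard to lose. Larp1, the TOP mRNA binding protein, stood at 11.05 and 10.95 in Tfh, 12.19 and 12.17 in Th1, 11.84 and 11.90 in Th2, and 12.02 and 11.96 in Th17, and fell by 1.02 (SE 0.07, adjusted p = 9.94e-05). Higher in Tfh were Mxd4, an antagonist of Myc, by 3.54 (SE 0.32), Akt1s1, an inhibitory subunit of mTORC1, by 1.98 (SE 0.14), and Tsc1, which restrains mTORC1, by 1.97 (SE 0.16), and only that of Mxd4 held in the 3 scalings. Myc stood at 11.25 and 11.18 in Tfh, 12.25 and 11.86 in Th1, 11.01 and 11.23 in Th2, and 11.69 and 11.86 in Th17, and was not called (-0.43, SE 0.14, adjusted p = 0.0291). Mycn stood at 2.80 and 2.73 in Tfh, 10.40 and 3.85 in Th1, 6.81 and 7.21 in Th2, and 10.12 and 4.42 in Th17, and its difference of -4.37 was not called (SE 2.09, adjusted p = 0.107), with replicate gaps of several log2 units.

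**Figure D5:**
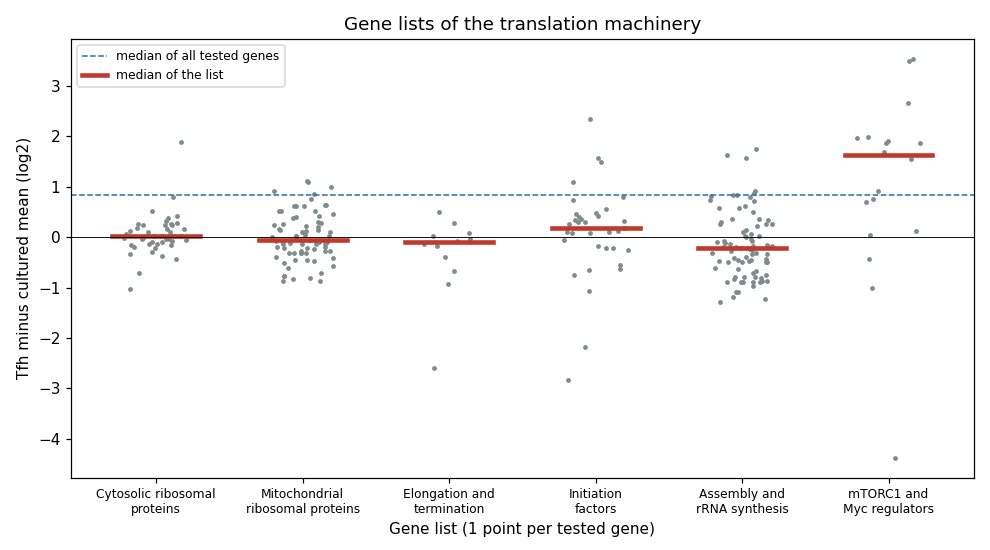
Difference between Tfh and the mean of Th1, Th2 and Th17 (log2, vertical axis), 1 point per tested gene, by gene list; red bars are medians of the lists and the dashed line that of all tested genes, 0.84. The medians are 0.02 for cytosolic ribosomal proteins, -0.06 for mitochondrial ones, -0.10 for elongation and termination, 0.18 for initiation, -0.22 for assembly and 1.62 for mTORC1 and Myc regulators.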

How the data were processed

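RNA extracted with Trizol was labelled with biotin by in vitro transcription and hybridised to 8 Affymetrix arrays of 45101 probe sets, per the labels' protocols. Deposited were log2 values made with GCRMA, per the submitters' processing notes; its version and the arrays normalized together are not given in the sources used here. GCRMA corrects background by probe sequence, quantile-normalizes and summarizes probes. Arrays quantile-normalized together share nearly the same distribution. The 75th percentile of the probe sets with 1 symbol was 8.82 and 8.84 in the Tfh arrays and 7.56 to 7.60 in the cultured ones. The deposited Tfh and cultured values were thus not on a common quantile-normalized scale. The values were used as deposited.

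The platform annotation paired 34945 probe sets with 1 symbol, 932 with several and 9160 with none; 64 were controls. Each of 18193 genes was read from its probe set with the highest mean, and those above the 50th percentile (3.13) on at least 2 arrays were tested. Differences were tested, two-sided, by limma 3.58.1 (R 4.3.3), fitting each group's mean over the 8 arrays. Its eBayes step used a trend (4 residual and 1.78 prior degrees of freedom). The calling was also run on simulated data with independent noise and no shift between arrays. That run does not cover calls under the shift between Tfh and cultured arrays. SE is that of the moderated fit. The number of arrays limits precision. Figures used matplotlib 3.10.9 in Python 3.11.15. Promoters and coordinates are from RefSeq (GRCm38.p6), whose table held 49 of the 49 members.

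Named members were those called, the 5 each way farthest from the members' median in Tfh against the cultured mean, and members of structural, paralog and disease groups; 3 called genes each way per list were named by smallest adjusted p. Members named beyond this (Rps10, Rpl8, Rps20, Rpl13a, Rpl27 and the widest replicate gaps, as well as Myc, Mycn, Eef1a1, Eef2, Fau and the symbols without a probe set of their own) were chosen after their values were seen. The members and lists were chosen with earlier results of these data known. Alternatives were 4 other scalings, no filter on low values, other choices of probe set, no variance trend, no fold threshold, only the arrays compared, a replicate block and leaving out each array. The replicate numbers were not used to pair the samples in the main fit. Correlations of same-numbered deviations were 0.255 for Th1 with Th17 and 0.268 for Th2 with Th17. Over the other pairs of groups they ran from -0.00 to 0.04. Whether same-numbered cultured arrays shared a batch or a culture was not tested.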

Additional observations from a re-analysis of the deposited data

How the results depend on the processing

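Counts of called members moved mainly with the scaling and the fold threshold. Higher calls in Tfh numbered 1 against the cultured mean, Th1, Th2 and Th17 (43.7%, 42.8%, 42.8% and 41.8% of all genes). After quantile normalization they were 0 in all 4 (18.3%, 17.6%, 19% and 16.6%). After the median shift they were also 0 in all 4 (14.8%, 14.4%, 15% and 13.5%). Without probe sets ending in _x_at they were 2 in all 4, and the share of all genes was not computed there. In that setting Rps24 was read from a dim probe set (mean 8.44). That probe set was higher in Tfh than in the cultured mean by 1.26, whereas the bright ones of Rps24 gave 0.25 to 0.40. Without a fold threshold the higher calls were 11, 8, 10 and 9 (59.1%, 54.6%, 54.2% and 54.1% of all genes). Lower calls were 1, 0, 1 and 1 as deposited (6.66%, 6.16%, 6.89% and 6.17% of all genes). After quantile normalization they were 5, 4, 6 and 4 (18.6%, 18.5%, 17.8% and 16.6%). After the median shift they were 35, 34, 36 and 33 (28.9%, 28.5%, 29.1% and 26%). With the common 90th percentile they were 4, 5, 3 and 5 (15.1%, 14.6%, 14.8% and 13.9%). Without a fold threshold they were 6, 5, 4 and 4 (12.5%, 10.7%, 11.1% and 10.4%). Against Th1 the lower count was also 1 when arrays shared the members' median (6.6% of all genes). With the replicate block the counts were 1 higher and 1 lower against the cultured mean, and that block changed no count of calls. Leaving out 1 array gave 1 to 2 higher and 0 to 1 lower calls against the cultured mean and against Th2, 1 to 1 and 0 to 1 against Th1, and 1 to 1 for both against Th17. The second higher call came without Tfh replicate 2, with Rpl39l at 1.00 against the cultured mean. The cultured pairs gave 0 calls under every alternative run. Single genes turned in sign as follows: Rpl39l to -0.40 after quantile normalization and -0.39 after the median shift; Rps29 to -0.67 after the median shift and -0.14 with the common 90th percentile; Rps28 to -0.76 and -0.23 likewise; and Rpl27a to -0.70 after quantile normalization, -0.82 after the median shift and -0.29 with the common 90th percentile. The median and 90th percentile shifts subtract 1 amount per array from every gene, so the turns under them follow from that step and say nothing of a single gene; the cause of the turns under quantile normalization was not tested. Most members were read near the top of the scale, and whether the scale is compressed there was not tested. With 2 arrays per group a member that was not called may still differ.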
